A study of Mus musculus with 21 samples.

Results

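Binding of estrogen receptor α (ERα) after estradiol was compared between BAT, brown adipose tissue, and scWAT, the subcutaneous white fat depot, through the 1700 strongest ERα ChIP-seq peaks of each tissue. Peaks on chromosomes 1 to 19 and X were ranked within each deposited list by the authors' −log10 p-value. A peak was called shared when it overlapped any peak of the other tissue's full list by at least 1 bp, and missing otherwise. The 3400 peaks so chosen are part of 23164 peaks in the BAT and scWAT lists and of 72690 in all 5 ERα lists. The BAT list rests on 1 library only, whereas the scWAT labels name 3 libraries that point to 1 list. No value per library was at hand in either tissue, so no difference between the depots could be set against a spread between animals, and no test was made.

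The series holds 21 samples of CD-1 mice aged 10 weeks that received estradiol or vehicle before sacrifice. BAT and scWAT were both from estradiol-treated mice, and neither has a vehicle list here. The vWAT lists with estradiol (4 libraries) and with vehicle (2 libraries) and the Liver list with estradiol (2 libraries) served only to look peaks up. Chromatin was precipitated with the antibody sc543, and the labels give neither dose, route and time of treatment, nor sex, nor whether libraries came from separate animals. Each tissue was used whole, so fewer cells of a type and less bound receptor per cell cannot be told apart. Peaks measure binding and not expression, so the labelled tissue could not be checked against the RNA of its defining markers.

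ERα is a ligand-activated transcription factor of the nuclear receptor family. It binds DNA directly at palindromic estrogen response elements, mostly in enhancers far from genes, and can also reach promoters through other DNA-bound factors. Brown fat burns fatty acids to make heat through the uncoupling protein Ucp1, whereas white fat stores triglyceride and secretes adipokines such as adiponectin and leptin.

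Most shared peaks lay at gene ends, nearly all of these at starts, so the DNA ahead of 4 such starts is shown, 1 or 2 for each class of peak. The 250 bases before the start site come from RefSeq (GRCm38.p6, which is mm10), are written 5′ to 3′ on the gene's strand, and have in capitals every match, on either strand, to CCGGAAG (ETS factors), CCAAT or GGGCGG (the GC box). The 4 genes were picked, after their values were seen, among genes named below whose stretch overlaps no listed gene. Psmc1, an ATPase subunit of the proteasome cap (chr12:100109952-100110201, plus strand), lies under a BAT peak that is shared. Rpl27, a protein of the large ribosomal subunit (chr11:101441995-101442244, plus strand), lies under a peak in the top 1700 of both lists. Morf4l1, a chromatin protein that binds methylated histone H3 (chr9:90114821-90115070, minus strand), lies under a BAT peak missing from scWAT. Rps7, a protein of the small ribosomal subunit (chr12:28635954-28636203, minus strand), lies under a scWAT peak missing from BAT.
Psmc1: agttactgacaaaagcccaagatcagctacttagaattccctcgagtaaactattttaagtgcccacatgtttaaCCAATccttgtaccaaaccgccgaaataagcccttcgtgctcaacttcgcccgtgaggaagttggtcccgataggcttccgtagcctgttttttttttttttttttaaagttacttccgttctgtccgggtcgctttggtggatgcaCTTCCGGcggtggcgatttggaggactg
Rpl27: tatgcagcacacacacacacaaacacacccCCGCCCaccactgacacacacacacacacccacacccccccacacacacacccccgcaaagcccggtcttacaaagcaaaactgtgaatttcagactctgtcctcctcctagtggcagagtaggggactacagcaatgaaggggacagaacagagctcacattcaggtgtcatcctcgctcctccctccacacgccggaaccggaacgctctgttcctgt
Morf4l1: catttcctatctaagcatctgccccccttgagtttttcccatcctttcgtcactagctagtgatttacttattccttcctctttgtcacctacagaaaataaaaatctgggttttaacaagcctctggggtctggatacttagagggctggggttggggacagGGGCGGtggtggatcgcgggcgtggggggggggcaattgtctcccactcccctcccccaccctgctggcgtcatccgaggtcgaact
Rps7: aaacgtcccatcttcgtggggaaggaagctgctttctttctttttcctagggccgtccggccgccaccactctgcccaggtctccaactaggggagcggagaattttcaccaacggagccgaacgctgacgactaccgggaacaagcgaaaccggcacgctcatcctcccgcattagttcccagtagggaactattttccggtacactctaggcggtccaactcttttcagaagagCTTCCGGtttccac
The ETS match begins 28 bases before the start in Psmc1, which also has 1 CCAAT, and 14 bases before it in Rps7, while Rpl27 and Morf4l1 each have 1 GC box and no ETS match in this window.

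Motifs were counted over the RefSeq promoters, each 250 bases before to 50 after a start, whose start lay inside a top peak. There were 743 such promoters, of 695 genes, for shared BAT peaks and 49, of 43 genes, for BAT peaks missing from scWAT. Shared scWAT peaks had 465, of 430 genes, and scWAT peaks missing from BAT 33, of 31 genes. All promoters numbered 21020, of 17252 genes. Some genes thus enter more than once, and the intervals below count each promoter as separate. The ETS letters CCGGAAG stood in 34.1% (95% Wilson interval 30.7 to 37.5) of the promoters under shared BAT peaks and in 32.7% (28.6 to 37.1) of those under shared scWAT peaks, against 11.7% of all promoters. Under the missing peaks the shares were 32.7% (21.2 to 46.6) in BAT and 24.2% (12.8 to 41.0) in scWAT. The GC box GGGCGG was in 79.6% (66.4 to 88.5) of the promoters under BAT peaks missing from scWAT and in 50.3% (46.7 to 53.9) of those under shared BAT peaks, against 46.6% of all. Those 49 promoters also had the highest median GC content, 64.7% against 58.0% under shared BAT peaks and 56.7% over all promoters, and the part of base composition in the GC box counts was not tested. CCAAT was in 38.1% of promoters under shared BAT peaks and in 37.2% of those under shared scWAT peaks, beside 38.5% of all promoters, and in 53.1% (39.4 to 66.3) and 45.5% (29.8 to 62.0) of those under missing BAT and missing scWAT peaks. The estrogen response element, the palindrome of GGTCA and TGACC with 3 bases between them, was in none of the promoters under any class of top peak, with an upper Wilson bound of 0.514% for shared BAT peaks, and in 11 of all 21020 promoters (0.0523%). A single arm, AGGTCA, which shares the letters GGTCA with the palindrome, was in 9.29% of promoters under shared BAT peaks and in 11.6% of those under shared scWAT peaks, both below the 14.6% of all promoters, and in 10.2% (4.44 to 21.8) and 21.2% (10.7 to 37.8) of those under the missing BAT and scWAT peaks. The letters TGACGTCA, CACGTG and GCATGCGC stood in 2.29%, 7.40% and 4.31% of promoters under shared BAT peaks, beside 2.26%, 7.91% and 3.54% of all. Under BAT peaks missing from scWAT the shares were 4.08% (1.13 to 13.7), 18.4% (9.98 to 31.4) and 8.16% (3.22 to 19.2), on 2, 9 and 4 promoters. Shared scWAT peaks gave 1.72%, 7.53% and 3.01%, and scWAT peaks missing from BAT 6.06% (2 of 33), 6.06% (2 of 33) and 0. All motifs were searched on both strands, and a match is a run of letters and not a measured site.

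Of the 1700 strongest BAT peaks, 1251 were also in the scWAT list, a share of 73.6% (95% Wilson interval 71.4 to 75.6), and 449 were missing from it. Over the full BAT list of 5193 peaks the share was 42.8%. Of the 1700 strongest scWAT peaks, 810 were in the BAT list, a share of 47.6% (45.3 to 50.02), and 890 were missing from it, while the full scWAT list of 17971 peaks had a share of 12.3%. The intervals cover counting error over peaks only. The lists differed in length and in strength: the top 1700 made up 32.7% of the BAT list and 9.46% of the scWAT list, and the authors' −log10 q-value reached 2 for 33.5% of BAT peaks and 88.0% of scWAT peaks. When each list looked up was held to its 5193 strongest peaks, the BAT share was 63.6%, and when peaks were looked up only in the other list's top 1700, the shares were 40.1% for BAT and 39.5% for scWAT. Tissue and number of libraries cannot be told apart in any of these shares.

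The last rank taken stood at different values in the 2 lists, which are not on one scale. The BAT peak at rank 1700 lies in Rtn2, which encodes a reticulon protein, and the next peak, just outside, is 53 bp from Kmt2b, a histone methyltransferase gene. Both have a −log10 p-value of 5.95, a −log10 q-value of 2.05 and an enrichment of 4.64, and both are found in scWAT. The BAT value at that rank was tied among 66 peaks, of which 53 were inside and 13 outside. In scWAT, rank 1700 lies 2.28 kb from Lox, the collagen cross-linking enzyme, and is missing from BAT, while the next peak lies 21.8 kb from Ier5l and is shared. Both scWAT peaks have a −log10 p-value of 31.8, a −log10 q-value of 28.0 and an enrichment of 7.69.

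Sharing fell with rank in both tissues. All of the 100 strongest BAT peaks were in the scWAT list, as were 97.5% of ranks 101 to 500, 78.2% of ranks 501 to 1000 and 52.9% of ranks 1001 to 1700. Beyond the top 1700, 28.8% of the next 1700 BAT peaks were in the scWAT list. Of the 100 strongest scWAT peaks 84.0% were in the BAT list, followed by 57.3% of ranks 101 to 500, 44.6% of ranks 501 to 1000 and 39.1% of ranks 1001 to 1700. The strongest BAT peak missing from scWAT was at rank 292, whereas the strongest scWAT peak missing from BAT was at rank 23. By chromosome, the BAT share ran from 57.7% on X (15 of 26 peaks) to 82.4% on chromosome 8 (75 of 91), and the scWAT share from 35.1% on chromosome 13 (27 of 77) to 62.2% on chromosome 7 (69 of 111).

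**Figure D1:**
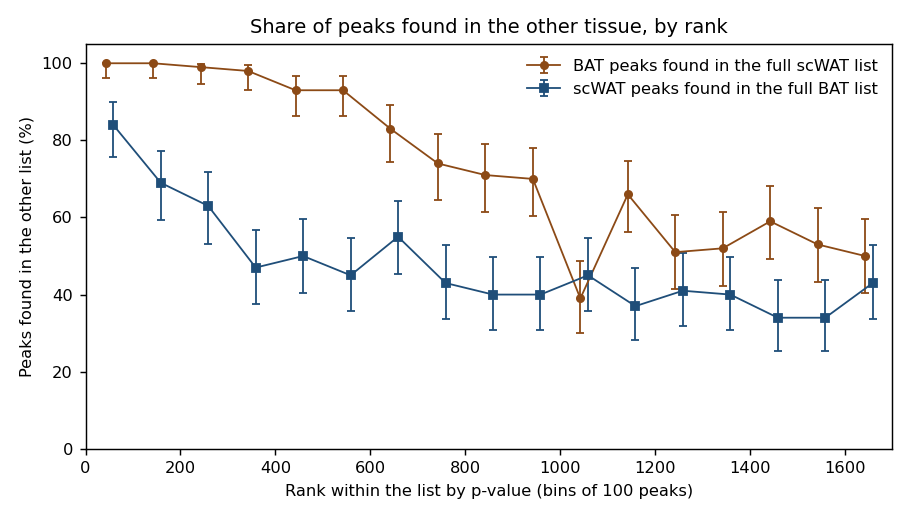
Percent of peaks found in the other tissue's full list (vertical axis) against rank within the list (horizontal axis, bins of 100 peaks), with 95% Wilson intervals that cover counting error only. The BAT line starts at 100% and the scWAT line at 84.0%, and both lie at 50% or lower in the last bin of ranks 1601 to 1700.

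Shared and missing peaks differed in strength and width within each list. Shared BAT peaks had a median enrichment of 5.95, a median −log10 p-value of 8.64 and a median width of 423 bp, and missing BAT peaks had 5.15, 6.95 and 304 bp. Shared scWAT peaks had 9.78, 62.0 and 628 bp, and missing scWAT peaks 9.23, 49.2 and 564 bp. Enrichment is the authors' own ratio over a background that is not given in the sources used here, so it is compared within a list only.

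The peaks that both depots held were mostly at gene ends, meaning that the summit, the authors' highest point of the peak, lay within 1 kb of a start or end of a protein-coding gene. This was so for 65.1% (62.5 to 67.7) of the 1251 shared BAT peaks and for 15.6% (12.5 to 19.2) of the 449 missing ones, beside 34.4% of the full BAT list. For scWAT the shares were 57.4% (54.0 to 60.8) of the 810 shared peaks and 7.64% (6.07 to 9.57) of the 890 missing ones, beside 29.7% of the full scWAT list. Read the other way, 92.1% of the BAT top peaks at gene ends and 53.5% of those elsewhere were in scWAT, and 87.2% of the scWAT top peaks at gene ends and 29.6% of those elsewhere were in BAT. Where a start site was listed, 96.2% of the shared BAT peaks at gene ends and 96.9% of the shared scWAT ones were at the start. Missing peaks were more often inside genes and over 1 kb from their ends, 37.4% of them in BAT and 42.2% in scWAT, against 16.9% and 20.2% of shared peaks. A distance of over 100 kb from any protein-coding gene was found for 16.3% of missing BAT peaks and 15.3% of missing scWAT peaks, against 5.04% and 6.42% of shared ones.

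**Figure D2:**
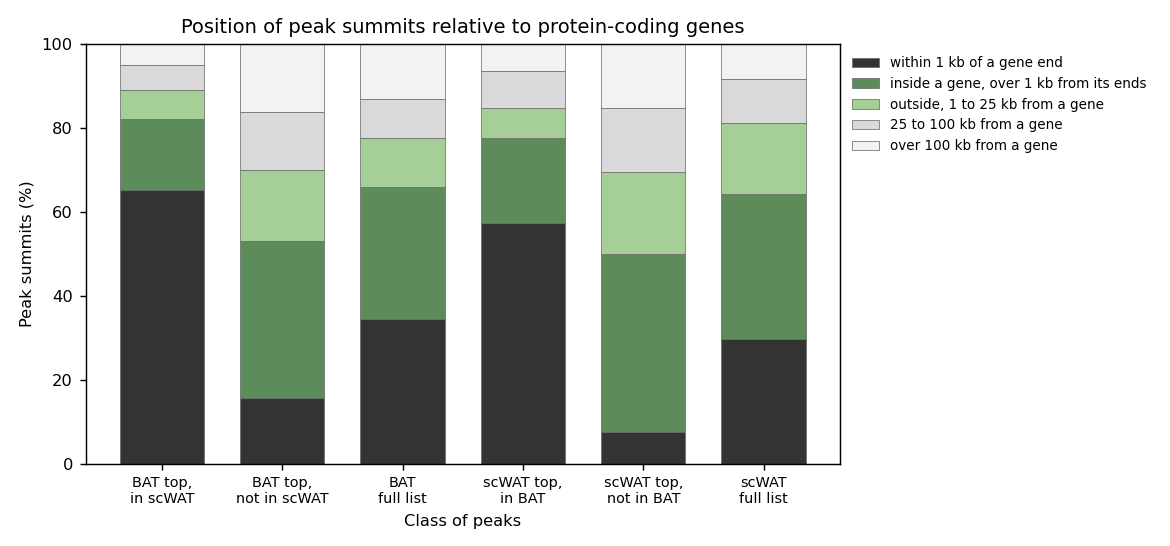
Percent of peak summits in each of 5 places relative to protein-coding genes (stacked bars, vertical axis), for shared and missing top peaks of BAT and scWAT and for both full lists. Summits within 1 kb of a gene end make up 65.1% and 57.4% of the shared classes and 15.6% and 7.64% of the missing classes.

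Much of that gene-end binding was common to every ERα list of the series. Of the 815 shared BAT peaks at gene ends 760 were in all of the vWAT estradiol, vWAT vehicle and Liver lists, and of the 465 in scWAT 453. Over shared peaks at any place the share in all 3 lists was 77.1% in BAT and 72.5% in scWAT, against 3.34% and 6.40% of the missing ones. With the top peaks common to those 3 lists left out, an alternative chosen after the data were seen, gene ends made up 19.2% of the 287 shared BAT peaks that remained and 13.8% of the missing ones. In scWAT the corresponding values were 5.38% of 223 shared peaks and 4.68% of missing ones. The depots then shared 39.8% (287 of 721) of the BAT top peaks and 21.1% (223 of 1056) of the scWAT top peaks.

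The missing peaks of the 2 depots differed in where else they were found. Here and below, scWAT-only and BAT-only mean missing from the other of these 2 depots, whatever the further lists hold. In the vWAT estradiol list lay 84.5% (82.0 to 86.7) of the scWAT top peaks missing from BAT but 13.8% (10.9 to 17.3) of the BAT top peaks missing from scWAT, beside 56% of the full scWAT list and 44.6% of the full BAT list. In the vWAT vehicle list lay 21.7% of the scWAT-only and 7.35% of the BAT-only peaks, beside 24.7% and 34.3% of the full lists. In Liver lay 12.1% and 15.1%, beside 25.8% and 36.2%. None of these 3 lists held 344 of the 449 BAT-only peaks (76.6%), whereas 129 of the 890 scWAT-only peaks (14.5%) were in none. Conversely, 517 scWAT-only peaks (58.1%) were in vWAT with estradiol and in neither vWAT with vehicle nor Liver, against 26 BAT-only peaks (5.79%). With each list looked up held to 5193 peaks, the shares found in vWAT with estradiol were 75.2% for scWAT-only and 12.9% for BAT-only peaks. The −log10 p-values of the BAT-only peaks, low in their list, are given above, and their part in this difference was not tested.

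**Figure D3:**
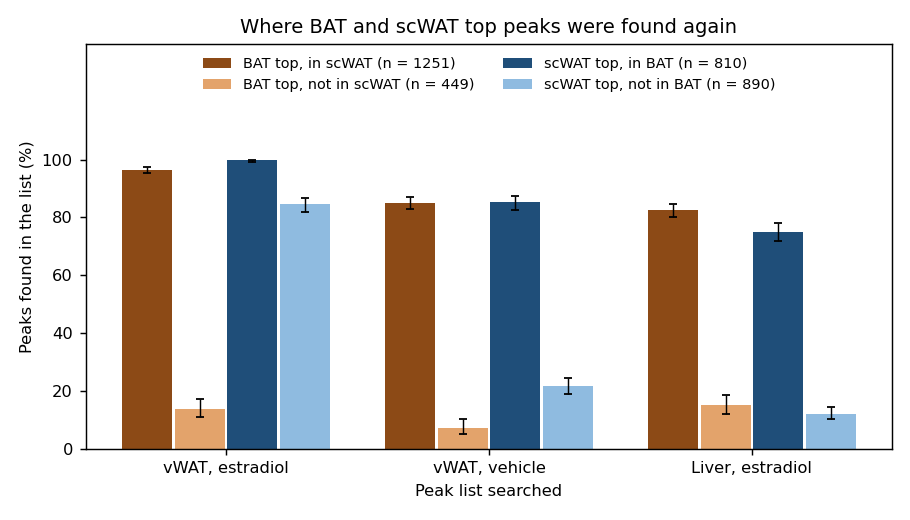
Percent of the top peaks of each class (vertical axis, with 95% Wilson intervals) that were found in the vWAT estradiol, vWAT vehicle and Liver lists. The scWAT peaks missing from BAT reach 84.5% in vWAT with estradiol and the BAT peaks missing from scWAT 13.8%.

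Presence in vWAT with estradiol went with sharing. Of the 1269 BAT top peaks in that list 95.1% were also in scWAT, and of the 431 outside it 10.2%. Of the 1560 scWAT top peaks in that list 51.8% were also in BAT, and of the 140 outside it 1.43%, which is 2 peaks.

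Shared peaks were centred on nearly the same bases in both depots but often differed in rank. The summits of shared BAT peaks lay a median of 49 bp from the summit of the overlapping scWAT peak, and 77.1% lay within 100 bp. The median rank of the scWAT partner was 1508, and 681 partners (54.4%) were themselves in the scWAT top 1700, while 179 ranked beyond 5000. Across the 1251 pairs, which come from 1 pair of lists and are not replicates, Spearman's rho of the ranks was 0.58. For the 810 shared scWAT peaks the median rank of the BAT partner was 513.5, 672 partners (83.0%) were in the BAT top 1700, and rho was 0.38.

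**Figure D4:**
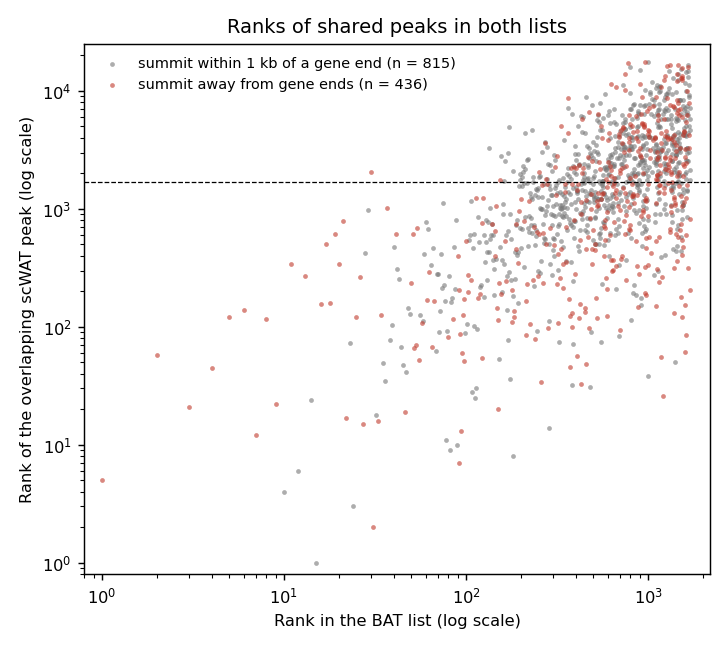
Rank in the BAT list (horizontal axis, log scale) against rank of the overlapping scWAT peak (vertical axis, log scale) for the 1251 shared BAT top peaks, 815 at gene ends in grey and 436 elsewhere in red. The dashed line marks scWAT rank 1700, below which 681 partners lie.

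The strongest BAT peaks were high in all 5 lists. Rank 1 in BAT (chr9:35305077-35305731, 29.5 kb from Rpusd4, a mitochondrial RNA-modifying enzyme) has an enrichment of 24.9 and ranks 5 in scWAT, 1 in vWAT with estradiol, 1 in vWAT with vehicle and 2 in Liver. Rank 3 lies inside Chl1, a neural cell adhesion gene, with an enrichment of 26.2, and ranks 21 in scWAT. Rank 4 lies 25.2 kb from Col19a1, a collagen gene, with an enrichment of 15.3, and ranks 45 in scWAT. Rank 10 lies at the start of Ddx17, an RNA helicase gene (chr15:79546444-79547061), with an enrichment of 18.7, and ranks 4 in scWAT and 3 in Liver. Of the 10 strongest BAT peaks, Ddx17 alone is at a gene end, and 6 have no protein-coding gene within 50 kb. Ranks 2 and 8 (chr2:98666205-98667419 and chr2:98662154-98662958) lie over 1000 kb from any gene and combine high −log10 p-values, 254 and 116, with low enrichments of 6.80 and 4.51. Ranks 5 and 6 (chr9:3000007-3000905 and chr9:3035421-3036639), 335 and 299 kb from any gene, have −log10 p-values of 122 and 119 with enrichments of 9.47 and 9.01. No list of problem regions was applied here, to these peaks or to any other. Whether the 10 strongest reflect bound receptor was therefore not tested. Each of the 10 is also in vWAT with vehicle and in Liver. BAT ranks 2, 3 and 4 rank 12, 2 and 71 in vWAT with vehicle and 1, 18 and 5 in Liver. The sharing of the top BAT ranks, given above, includes these peaks.

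Of the 10 strongest shared scWAT peaks 7 were at gene ends. Rank 1 in scWAT lies at Gpr137 (chr19:6941313-6941922) with an enrichment of 19.9 and ranks 15 in BAT, where its enrichment is 18.0. Ranks 3, 6, 9 and 10 lie at the gene ends of Hnrnpa2b1, an RNA-binding protein, Kmt5b, a histone H4 methyltransferase, Tfpt, and Sirt6, a protein deacylase, and rank 24, 12, 82 and 89 in BAT. Rpl27, whose upstream bases are shown above, has the scWAT peak of rank 8 (enrichment 19.3) and the BAT peak of rank 180 (9.34). Rank 7 in scWAT (chr16:25158124-25159070, enrichment 17.5) lies 128 kb from the nearest gene, ranks 92 in BAT (10.6) and 73 in vWAT with estradiol, and is in neither vWAT with vehicle nor Liver.

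A smaller group of shared peaks was seen in all 3 estradiol-treated fat lists and in neither vehicle nor Liver, 112 in BAT (8.95%) and 99 in scWAT (12.2%). Of the 112 BAT peaks 10 (8.93%) were at gene ends, against 760 of the 964 peaks (78.8%) found in all lists. Chosen after their values were seen, the strongest inside genes were in Ttc28 (BAT rank 37, enrichment 11.0, scWAT rank 1020), in Ssr3, a subunit of the translocon-associated complex (80, 10.2 and 82), and in Mmd2 (156, 9.19 and 191). Inside Ano1, a calcium-activated chloride channel gene, lay BAT rank 201 with an enrichment of 9.16 and scWAT rank 1217.

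The most shared BAT top peaks within 25 kb of a gene was 3, reached by 27 of the 2486 genes with any, among them Hdgf, Cenpt, a centromere protein gene, and the neighbours Acadvl, which encodes a mitochondrial enzyme of fatty acid oxidation, Dvl2, a Wnt signalling gene, and Phf23. Acadvl, Dvl2 and Phf23 lie side by side on chromosome 11, and their strongest peak is the same one, with an enrichment of 8.10 in BAT. In scWAT, Cenpt and its neighbour Tsnaxip1 had 3 shared top peaks each, and Lars2, a mitochondrial tRNA synthetase gene, Atg13, an autophagy gene, and Cuedc1 had 2 each.

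Shared BAT top peaks had a median rank of 647, and the BAT top peaks missing from scWAT stood lower, at 1214. The strongest, rank 292, lies inside Itga9, an integrin subunit gene (chr9:118674822-118675139), with an enrichment of 8.12 and a −log10 p-value of 12.7, and is also in Liver. Among the next, peaks lie 25.3 kb from Pwwp2b (rank 369, enrichment 7.59), 12.8 kb from Sdr39u1 (370, 7.51), 10.5 kb from Vmn1r15, a vomeronasal receptor gene (422, 7.20), and 6.86 kb from Hspa4, a chaperone gene (441, 6.75), and none of these 4 is in any further list. Rank 423 lies 11.7 kb from Rps23rg1 and is in vWAT with estradiol and in Liver, and ranks 490 and 493, in no further list, lie 11.7 kb from Tmsb15a and inside Edil3. Morf4l1, whose upstream bases are shown above, has BAT rank 466 with an enrichment of 6.75 (chr9:90114574-90114996), and although missing from scWAT it ranks 2437 in vWAT with estradiol, 1676 with vehicle and 573 in Liver. At most 2 BAT-only peaks fell on 1 gene, as in Kcnt2, a potassium channel gene, Rbms1, Sun1, a nuclear envelope gene, Lhfpl3, and Ppargc1a, the coactivator that drives mitochondrial and thermogenic genes. These 5 genes span 49.3 to 662 kb.

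Distances to the other depot's binding depend on the length of its list, 17971 peaks in scWAT and 5193 in BAT. For BAT-only peaks the median distance from the summit to the nearest scWAT summit was 44.5 kb, and 87 of 449 (19.4%) lay within 10 kb of one. Of the 339 genes nearest to them, 207 (61.1%) were also the nearest gene of some scWAT peak, in a list that names 9210 of all 21631 genes. The scWAT-only peaks lay a median of 98.04 kb from the nearest BAT summit with 68 of 890 (7.64%) within 10 kb, and 202 of their 619 genes (32.6%) were also named by the BAT list, which names 3710.

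The scWAT peaks missing from BAT began at rank 23 of the scWAT list, and each of the 10 strongest was in vWAT with estradiol. Rank 23 lies inside Ptpn5, a tyrosine phosphatase gene (chr7:47108732-47109345), with an enrichment of 19.001 and a −log10 p-value of 247, ranks 91 in vWAT with estradiol, and is in neither vehicle nor Liver. Rank 29 lies inside Ulk4 (chr9:121118041-121118635) with an enrichment of 20.5, and ranks 1815 in vWAT with estradiol. Ranks 40 and 42 lie inside Zfp469 (enrichment 16.5) and 42.6 kb from Gng12, a G-protein subunit gene (16.4). Ranks 44 and 63 lie 9.79 kb from Zcchc10 (16.4) and 7.97 kb from Ctr9, a transcription elongation gene (15.4). Ranks 57 and 69 lie 20.7 kb from 1700029H14Rik (15.5) and 6.82 kb from D630003M21Rik (13.6), and both are also in vWAT with vehicle. Of these 10 peaks 8 are absent from vWAT with vehicle and 8 from Liver.

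Several genes carried groups of scWAT-only peaks. Adamts2, which encodes the protease that trims procollagen, had 4 of them inside its span (chr11:50602085-50807573), at scWAT ranks 1115, 1119, 1265 and 1273 with enrichments of 6.04 to 8.02, all in vWAT with estradiol and none in vehicle or Liver. Another Adamts2 peak, at scWAT rank 259, is shared with BAT rank 327, and the scWAT list has 12 peaks in or near the gene against 2 in BAT. Ccdc162, Scml4, Greb1 and Dennd2a each had 3 scWAT-only top peaks, with best enrichments of 11.7, 10.1, 12.1 and 9.64. The full BAT list holds 2 peaks at Ccdc162, 1 at Scml4 and none at Greb1 or Dennd2a.

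A minority of scWAT-only peaks were in no further list at all, 129 of 890, with 48.8% of them inside genes. Among the strongest, and chosen with their values in view, were peaks inside Ablim1, an actin-binding LIM protein gene (scWAT rank 147, enrichment 14.2), 2.30 kb from Cryaa, a lens crystallin gene (161, 12.2), and inside Gatb (215, 14.0) and Mprip (255, 11.7).

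Gene groups were described by counting the genes with a top-peak summit inside their span or within 25 kb. Of all 21631 protein-coding genes, 11.5% had a shared BAT top peak, 2.29% a BAT top peak missing from scWAT, 6.93% a shared scWAT top peak and 3.94% a scWAT top peak missing from BAT. A peak near a gene need not act on it, and many of the named peaks are nearest to another gene, which is given with only some of them. As above, a gene end is a start or an end of a gene. The lists hold 14 to 26 genes, so a single gene shifts a share by several percentage points. Long genes have more room for a peak, and the shares of all genes are not matched for gene length. Distances below are medians over a list from each gene to its nearest top-peak summit of either class, for which all genes had 317 kb in BAT and 367 kb in scWAT.

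The estrogen response list, 26 genes known as ERα targets in other tissues, had more scWAT-only than BAT-only peaks. Of its genes 7 (26.9%) had a scWAT-only top peak, 2 (7.69%) a BAT-only one, and 2 a shared one in each tissue, with medians of 84.8 kb in scWAT and 189 kb in BAT. Greb1, a cofactor gene that ERα induces, had 3 scWAT-only peaks at ranks 486, 523 and 1185 (enrichments 12.1, 9.59 and 6.81) and no BAT peak of any rank. Pgr, the progesterone receptor gene, had the scWAT-only peak of rank 205 (chr9:8970239-8970818, 1.90 kb beyond the gene, enrichment 10.3), which is also in vWAT with and without estradiol. Ccn5, a secreted Wnt-induced protein gene, had scWAT rank 739 (9.13), and Kcnk5, a potassium channel gene, rank 1231 (9.42). Igfbp4, an IGF-binding protein gene, had rank 936 (9.55), whose summit is at a gene end of Top2a. None of these 3 has a BAT peak of any rank. Nrip1, a corepressor of nuclear receptors, had 1 peak in both tissues (chr16:76321565-76321873, BAT rank 1110 and scWAT rank 151), and 1 further peak in each that the other lacked, at scWAT rank 512 at its start and BAT rank 1580 beyond its end. Xbp1, a stress-response transcription factor, had a shared peak 16.4 kb away at a gene end of Ccdc117. It stood at BAT rank 997 and scWAT rank 38. Ccnd1, cyclin D1, had the BAT-only peak of rank 1214, 18.9 kb from the gene.

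The receptor's own gene, Esr1, differed in the same direction. The scWAT list had 10 peaks in or near its 394 kb span, the best at rank 1030 with an enrichment of 9.02 (chr10:4590885-4591426, 20.8 kb before the span), which is also in both vWAT lists and Liver. The BAT list had 1, at rank 4965 of 5193 with an enrichment of 3.25, and it overlaps none of the scWAT peaks. Over all genes, 61% had a peak of any rank in the scWAT list and 29.7% in the BAT list.

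Nuclear receptors and their cofactors were above the background in shared BAT peaks. Of 18 genes, 6 (33.3%) had a shared BAT top peak, 1 a BAT-only one, 3 (16.7%) a shared scWAT one and 2 a scWAT-only one, and the medians were 121 kb in BAT and 175 kb in scWAT. For 4 of these 6 the peak was at a gene end of a neighbour and in every list. Among them were Nr1h3, the oxysterol receptor LXRα (BAT rank 567, scWAT rank 780, at Acp2), and Thra, a thyroid hormone receptor (829 and 1314, at Med24). Another was Ep300, a histone acetyltransferase (788 and 2880, at L3mbtl2). The peak near Nr4a1, an orphan receptor induced by β-adrenergic signals, is an exception, since it is at BAT rank 710 and scWAT rank 4679 and is in vWAT with estradiol but in neither vehicle nor Liver.

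Brown fat genes had top peaks in both depots. Of 18 thermogenesis genes 4 (22.2%) had a shared BAT top peak, beside 11.5% of all genes, and 1 (5.56%) a BAT-only one, beside 2.29%. A shared scWAT peak was near 3 (16.7%), beside 6.93%, and a scWAT-only one near 2 (11.1%), beside 3.94%. Counts this small are hard to set apart from the shares of all genes. The medians were 70.5 kb in BAT and 159 kb in scWAT. The 4 shared BAT peaks were near Cox7a1 and Cox8b, subunits of the last respiratory enzyme, Acsl5, which activates fatty acids, and Fgf21, a hormone, at BAT ranks 107, 1316, 111 and 257. The summits near Cox7a1, Acsl5 and Fgf21 are at gene ends of Zfp146, Vti1a and Bcat2, and all 4 peaks are in every further list. Ucp1, the defining gene of brown fat, had no BAT peak of any rank within 25 kb and 1 scWAT peak, at rank 1282 with an enrichment of 9.39 (chr8:83267089-83267610), which lies inside Tbc1d9 and 23.0 kb from the Ucp1 start, and is otherwise in vWAT with estradiol alone. Ppargc1a had 2 BAT peaks, at ranks 1057 and 1116 with enrichments of 5.26 and 5.24 (chr5:51607454-51607754 and chr5:51868193-51868620), and no scWAT peak of any rank, and the second of them is also in Liver. Ppargc1b, its relative, had 2 scWAT-only peaks, the better at rank 1171 inside Pde6a. Dio2, the enzyme that activates thyroid hormone in brown fat, and Cidea, a lipid droplet protein, had no peak within 25 kb in either list.

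Among 16 brown fat transcription factors 3 (18.8%) had a shared peak in each tissue, the same 3 genes, beside 11.5% of all genes in BAT and 6.93% in scWAT. Prdm16, which sets brown fat identity, had 1 inside the gene at BAT rank 526 and scWAT rank 1056 (chr4:154588178-154588551, enrichments 6.63 and 10.8). Esrrg, an estrogen-related receptor gene that binds no estradiol, had 1 at BAT rank 762 and scWAT rank 1169. Both of these are in vWAT with estradiol and in neither vehicle nor Liver. The third, Esrra, lies 19.5 kb from the Gpr137 peak, and has a second shared peak at its own start at BAT rank 1253 and scWAT rank 9373. BAT-only peaks were inside Nfia (ranks 1093 and 1640), where scWAT had 8 other peaks of which the best was at rank 4941, and near Irf4 (rank 1569). These 2 genes are 12.5% of the list, beside 2.29% of all genes.

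Adipogenic factors had counts above the background in both tissues. Of 18 genes 5 (27.8%) had a shared BAT top peak, 2 a BAT-only one, 4 (22.2%) a shared scWAT one and 3 (16.7%) a scWAT-only one, with medians of 95.1 kb in BAT and 83.8 kb in scWAT. Stat5a and Stat5b, neighbouring genes for cytokine-activated factors, share the peak inside Stat5a at BAT rank 98 and scWAT rank 51 (chr11:100870523-100870984, enrichments 10.9 and 15.3), which all lists hold. In scWAT 2 further top peaks inside Stat5b, at ranks 465 and 941, were missing from BAT. Zfp423, a preadipocyte factor, had 2 shared peaks inside the gene, at BAT ranks 102 and 1103 and scWAT ranks 277 and 536, neither of them in Liver. Srebf1, the regulator of lipid synthesis, had a shared peak that lies inside Rai1 (BAT rank 626, scWAT rank 366). Pparg, the master regulator of fat cells, had a BAT-only top peak at rank 1447 (chr6:115509928-115510281, 19.7 kb beyond the gene, enrichment 4.82), and the best of its 4 scWAT peaks, rank 3084 (chr6:115511370-115511803, 5.82), lies close by without overlapping it. Cebpb, another adipogenic factor, had a shared peak at BAT rank 1594 and scWAT rank 3213.

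Genes of fatty acid uptake had the highest share of scWAT-only peaks of the 21 lists. Of 14 genes 5 (35.7%) had one, beside 3.94% of all genes, with Cav1 and Cav2 counted through the same peak. None had a BAT-only one, beside 2.29% of all genes, and 14 genes are too few to set none apart from that share. In each tissue 1 gene (7.14%) had a shared peak, beside 11.5% in BAT and 6.93% in scWAT. The medians were 69.4 kb in scWAT and 502 kb in BAT. Cd36, the fatty acid translocase, had scWAT rank 1262 inside the gene (chr5:17876651-17877198, enrichment 7.75), and the neighbours Cav1 and Cav2, caveolins, share scWAT rank 1099 inside Cav1 (chr6:17308425-17309020, 7.30). Both of these peaks are also in vWAT with estradiol and with vehicle. Lrp1, a lipoprotein receptor, had scWAT rank 1345, and near Fabp4, the fatty acid carrier of fat cells, lay rank 1614, closer to Fabp9. The full BAT list has no peak within 25 kb of Cd36, Cav1, Cav2 or Fabp4.

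Lipid synthesis and lipolysis genes with a shared peak had it mostly at a gene end of a neighbour. Of 18 synthesis genes 3 (16.7%) had a shared peak in each tissue, beside 11.5% of all genes in BAT and 6.93% in scWAT. They were Fasn, fatty acid synthase (BAT rank 86, scWAT rank 477, at Dus1l), Srebf1, and Gpam, which starts triglyceride synthesis, inside its own gene (956 and 194). Another 2 (11.1%), Scd2, a desaturase, and Mogat1, an acyltransferase, had scWAT-only peaks at ranks 1188 and 1648, beside 3.94% of all genes. Of 18 lipolysis and lipid droplet genes 3 (16.7%) had a shared BAT peak, beside 11.5% of all genes. These peaks were near Plin2, a lipid droplet coat protein, Pnpla2, the first lipase of triglyceride breakdown, and Prkar2b, which regulates protein kinase A, at BAT ranks 407, 562 and 682. None of the 18 had a missing peak in either tissue, beside 2.29% of all genes in BAT and 3.94% in scWAT. A list of 18 genes is too short to set none apart from those shares. Plin1, the main lipid droplet coat protein, had no peak in either list, and Lipe, hormone-sensitive lipase, had 1 scWAT peak at rank 12435.

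Among glucose genes, Pdk4, Hk2 and Trib1 had shared BAT top peaks. The ranks of their peaks are given for both lists, and ranks in lists of unequal length show no change of binding. Of 18 genes 3 (16.7%) had a shared BAT top peak, beside 11.5% of all genes, a count that 1 gene fewer would put under that share. A BAT-only peak was near 2 (11.1%), beside 2.29%, and 1 gene each had a shared and a scWAT-only peak in scWAT, with medians of 63.9 kb in BAT and 111 kb in scWAT. Pdk4, the kinase that holds back pyruvate oxidation, had 3 BAT top peaks, at ranks 554, 1270 and 1418 and at 13.8, 2.64 and 0.945 kb from the gene (enrichments 6.23, 4.54 and 4.39). Their scWAT partners were at ranks 5033, 8687 and 2895 with enrichments of 4.14, 2.82 and 4.47, none of the 3 is in vWAT with vehicle or Liver, and 2 of the 3 are in vWAT with estradiol. Hk2, a hexokinase, had BAT rank 436 inside the gene (chr6:82760682-82761100) and scWAT rank 5824, and is likewise in vWAT with estradiol only. Near Trib1, a pseudokinase gene, lay BAT rank 605 and scWAT rank 1693. Slc2a4, the insulin-regulated glucose transporter, had a BAT-only peak at rank 998, which is at a gene end of Eif5a. Pfkfb3, a glycolytic regulator, had a scWAT-only peak at rank 452.

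Of 16 adipokine and white adipocyte genes 1 (6.25%) had a shared BAT peak, beside 11.5% of all genes, 2 (12.5%) a shared scWAT one, beside 6.93%, and 1 (6.25%) a scWAT-only one, beside 3.94%, and the medians were 206 kb in BAT and 119 kb in scWAT. The shared BAT peak, rank 791, was near Nnat, at a gene end of Blcap. At 24.98 kb from Cfd, adipsin, lay the shared scWAT peak of rank 48, inside Plppr3 (chr10:79865592-79866174, enrichment 17.6), with BAT rank 456. The summit of that BAT partner lies outside the 25 kb window, so Cfd counts as shared in scWAT and not in BAT. Vegfa, the angiogenic factor, had 4 scWAT peaks, the best at rank 227 inside the gene (chr17:46026224-46026836, 13.5), and none in BAT. Adipoq, adiponectin, had 1 BAT peak at rank 3614 and 2 scWAT peaks at ranks 6929 and 9680, which do not overlap it, and Lep, leptin, had 1 scWAT peak at rank 3781 and none in BAT.

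Clock and proteasome genes had shares of shared BAT peaks of 31.3% (5 of 16) and 35.0% (7 of 20), beside 11.5% of all genes. Their shared scWAT counts were 2 (12.5%) and 1 (5%), beside 6.93%. In the clock list, Dbp had BAT rank 123 and scWAT rank 761 (inside Car11), Arntl, the gene of BMAL1, 798 and 736, and Cry2, a repressor, 732 and 5335. Bhlhe40, a repressor, had BAT rank 1453 and scWAT rank 16477. The shared proteasome peaks stood at BAT ranks 920 to 1472, and all 7 were at gene ends, with Psmc4, Psmc1 and Psma5 at their own. Psmc1, whose upstream bases are shown above, had BAT rank 1376 (enrichment 4.93) and scWAT rank 4124, and 2 further proteasome genes, Psmc5 and Psmb5, had BAT-only peaks. The medians in BAT were 128 kb for clock genes and 37.7 kb for proteasome genes, and in scWAT 151 and 184 kb. Of 20 ribosomal protein genes 2 (10.0%) had a shared BAT top peak, among them Rpl7, and 2 had a scWAT-only one, Rpl4 and Rps7, both at their own gene ends and in all 3 further lists.

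Genes of stroma and matrix had scWAT-only peaks in 4 of 18 (22.2%), beside 3.94% of all genes, and no other top peak. They were Cd34, a progenitor surface protein (scWAT rank 525, enrichment 10.9), the collagen genes Col6a3 (778, 10.9) and Col5a1 (1103, 8.89), and Fbn1, fibrillin (1453, 8.18). All 4 peaks are in vWAT with estradiol and in neither vehicle nor Liver, and the full BAT list has no peak near the first 3 and 1 at Fbn1. The list's medians were 259 kb in scWAT and 284 kb in BAT. In the classes where the list had none, all genes had 11.5% (shared BAT), 2.29% (BAT-only) and 6.93% (shared scWAT). A list of 18 genes is too short to set none apart from those shares.

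Markers of other cell types that either tissue could hold had 0 to 2 genes in each class, counts too small to set apart from the shares of all genes (11.5% shared and 2.29% BAT-only, 6.93% shared and 3.94% scWAT-only). Skeletal muscle genes had shared BAT peaks in 2 of 16 (12.5%), near Atp2a1 and Tnnc2. Both peaks are at gene ends of other genes (Tufm and Ube2c) and in every further list. Endothelial genes had 1 BAT-only peak (Emcn, rank 1687) and 1 scWAT-only peak (Tie1, rank 1565) among 15 (6.67% each). Lymphocyte genes had 1 shared scWAT peak and 1 scWAT-only peak (Ms4a1, rank 1239) among 14 (7.14% each). The macrophage (16 genes), mammary epithelium (18) and nerve (16) lists had none in any of the 4 classes, and the 16 depot developmental factors had 1 BAT-only peak, inside Wt1 at rank 1045.

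**Figure D5:**
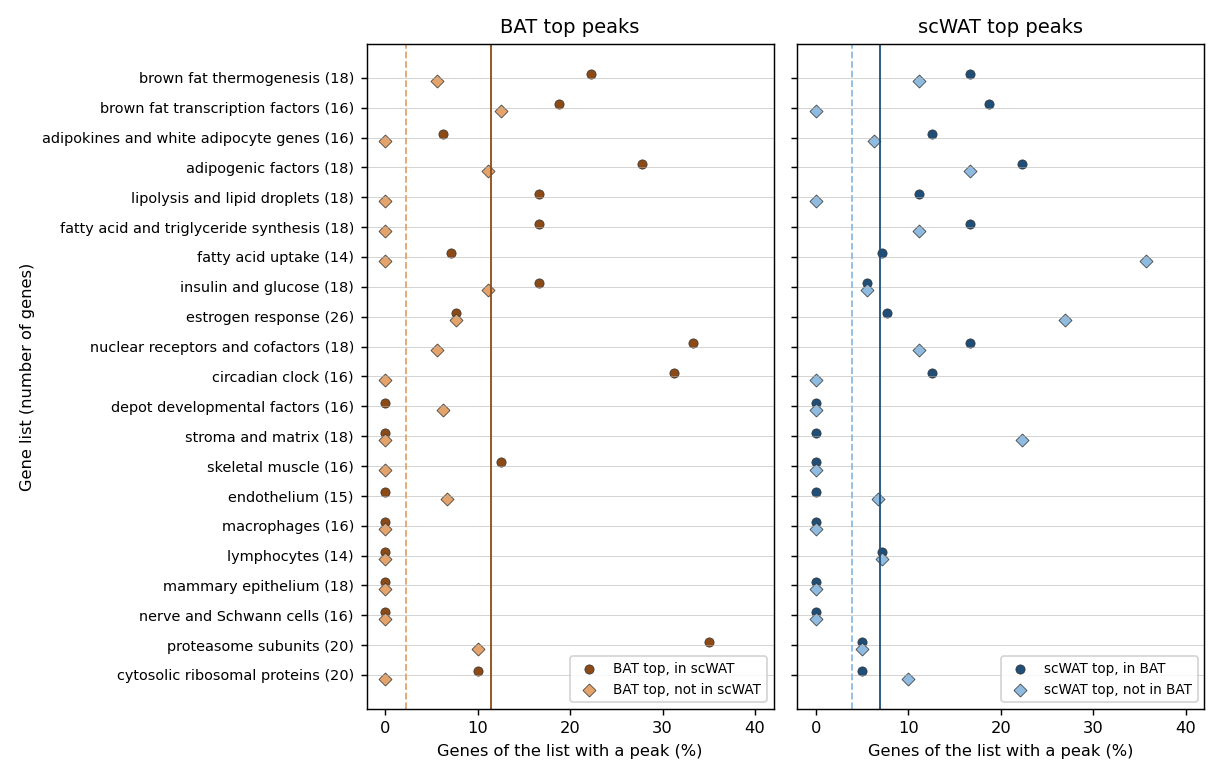
Percent of the genes of each list (rows, number of genes in brackets) with a top peak inside the span or within 25 kb, for shared peaks (circles) and missing peaks (diamonds) of BAT (left) and scWAT (right). Vertical lines give the percent over all 21631 genes, solid for shared peaks (11.5% and 6.93%) and dashed for missing peaks (2.29% and 3.94%), and fatty acid uptake at 35.7% and estrogen response at 26.9% stand highest among the scWAT peaks missing from BAT.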

How the data were processed

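Peak lists of the ERα ChIP-seq libraries were used as deposited, 1 per group. The narrowPeak columns deposited for every peak give an enrichment ratio, a −log10 p-value, a −log10 q-value and a summit. The deposited score column follows the −log10 p-value and was not used for ranking. The build was mm10 and the tools included HOMER and BWA 0.7.12, per the submitters' processing notes. The sources used here do not give the peak caller, cut-off, control or pooling of libraries, and read depth is unknown. All libraries of a group point to 1 list, and groups were taken from the sample labels. Lists made from more reads can reach weaker peaks, so enrichments of 2 lists given side by side are not on one scale, and no change of binding is read from them.

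Ranking, overlap, gene assignment and Wilson intervals were computed with Python 3.11.15, numpy 2.4.6 and pandas 2.3.3. Spearman's rho was computed with scipy 1.17.1 and figures were made with matplotlib 3.10.9. The overlap code was tested on simulated peaks. Ties in p-value were broken by enrichment, then by position. Each summit was assigned the closest protein-coding gene of the RefSeq table (21631 genes) up to 50 kb away, and start sites were listed for 17274 of them. All 359 genes of the 21 lists were found, Wisp2 as Ccn5. Genes are named from the 10 strongest peaks of each class, up to 4 members of each list per class, up to 5 genes with the most top peaks per class, the last peak inside and the first outside the top 1700, and Esr1, Greb1, Pgr, Ucp1, Pparg and Adipoq. Picked in view of their values were Dio2, Cidea, Plin1, Lipe, Lep, Cebpb, Bhlhe40, Psma5, Fabp4, Igfbp4 and Kcnk5. The members and lists were chosen with earlier results of these data known. Alternatives changed list size, ranking, overlap, q-value and windows. H3K27ac and RNA-seq samples of vWAT, peaks on chromosomes M and Y, and sequences of the peaks themselves were not used here, and some listed genes are not reported here by name.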

Additional observations from a re-analysis of the deposited data

Results flagged for a closer look

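Binding calls outside the chromosomes compared were present in both lists. The BAT list held 4 peaks on chromosomes M and Y, 2 on each, and the scWAT list held 16, of which 2 were on M and 14 on Y. The M peaks had high −log10 p-values, 42.2 and 48.4 in BAT, with enrichments of 1.958 and 2.07, below the BAT list's median of 4.32. The Y peaks had −log10 p-values of 7.19 to 7.47 in BAT and 5.47 to 32.2 in scWAT.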

How the results depend on the processing

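No paired analysis was possible because each group has 1 peak list and no values per library, and for the same reason no replicate could be left out, so neither was run. Shared peaks were at gene ends more often than missing ones in 13 of 13 settings for BAT and 12 of 12 for scWAT, the main setting included. These counts give direction only. With peaks common to the 3 further lists left out, scWAT had 5.38% against 4.68%, and the BAT values, given above, also lay closer together. The BAT share found in scWAT exceeded the scWAT share found in BAT in 11 of 11 settings, the main one included. In most of these settings the lists looked up differed in length, so the count alone shows no difference between depots. With only the other top 1700 looked up the shares were 40.1% and 39.5%, and with lists held to 5193 peaks 63.6% and 47.6%. In vWAT with estradiol, scWAT-only peaks exceeded BAT-only peaks in 10 of 10 settings. Of 86 values under alternatives 45 moved by more than their interval, and the cause was not tested unless the setting itself gives it. Below, "found" is the share in the other depot, "ends" the share at gene ends, and "in vWAT" the share of missing peaks in vWAT with estradiol. With the top 850, BAT found was 91.1% and missing ends 19.7%, and scWAT found was 56.2%, shared ends 50.2% and in vWAT 87.1%. With the top 3400, BAT found was 51.2%, missing ends 12.4% and in vWAT 9.64%, and scWAT found was 36.9%, shared ends 61.8%, missing ends 11.0% and in vWAT 81.2%. Ranking by enrichment gave scWAT found 44.2% and in vWAT 81.4%. Summits within 100 bp gave BAT found 56.8%, missing ends 34.4% and in vWAT 19.2%, and scWAT found 39.9% and missing ends 13.4%. Looking up only the other top 1700 gave BAT found 40.1%, shared ends 60.8%, missing ends 46.2% and in vWAT 57.8%, and scWAT found 39.5%, shared ends 61.5% and missing ends 11.7%. A −log10 q-value of at least 2 gave scWAT found 39.8%, shared ends 61.2% and missing ends 11.6%. A gene end window of 5 kb gave BAT ends of 73.6% shared and 25.8% missing, and scWAT ends of 63.8% and 18.99%. The following alternatives were chosen after seeing the data. Lists looked up at 5193 peaks gave BAT found 63.6% and missing ends 29.9%, and scWAT in vWAT 75.2%. Leaving out peaks common to the 3 further lists gave BAT found 39.8% and shared ends 19.2%, and scWAT found 21.1%, shared ends 5.38% and missing ends 4.68%. Ranks 1001 to 1700 alone gave BAT found 52.9% and shared ends 61.4%, and scWAT found 39.1% and shared ends 67.5%. Of the 84 gene list counts, 35 moved by over 1.5 times with a window of 5 kb and 60 with 100 kb, so they describe 25 kb only. Read depth is unknown, which limits what a missing peak shows.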

Other observations

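The X chromosome held 2.48% of the BAT list (129 peaks) and 1.22% of the scWAT list (219 peaks), beside 1.48% in vWAT with estradiol, 1.95% in vWAT with vehicle and 3.19% in Liver. Of the BAT top peaks missing from scWAT 11 (2.45%) were on X, and of the shared ones 15 (1.20%).

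Among the 179 shared BAT peaks whose scWAT partner ranked beyond 5000, 67.0% were at gene ends and 78.2% were in Liver. Chosen after their values were seen, the strongest was 33.1 kb from Pum2, an RNA-binding repressor of translation (BAT rank 331, scWAT rank 5012). The next were at a gene end of Yif1b (363 and 7102) and inside Rad51b, a DNA repair gene (365 and 8750). Only 4 shared scWAT peaks had a BAT partner beyond rank 5000, in a list of 5193.

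Of the 70 gene-end BAT peaks missing from scWAT 54.3% (42.7 to 65.4) were in Liver and 31.4% (21.8 to 43.0) in vWAT with estradiol. The 68 gene-end scWAT peaks missing from BAT had the other order, 55.9% in Liver and 92.6% in vWAT with estradiol. None of these differences could be set against a spread between animals.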
